A study of Sesamum indicum with 195 samples.

Results

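Roots of the waterlogging-tolerant sesame genotype ZZM2541 (R2G) were compared after 4 h of waterlogging and after 4 h under control condition, the earliest hour of stress that has a control of its own. The comparison rests on 6 of the 195 root libraries of the series: 3 of R2G waterlogged for 4 h and 3 of R2G kept under control condition for 4 h, all labelled as root at flowering stage. As the study's methods describe, the plants grew in soil in pots. Stressed pots stood in water above the soil surface, and control pots were irrigated. The methods give a single plant per pot, from 3 replicated pots, as the 3 replicates. They also name a randomized blocking design, and whether the replicate numbers are its blocks is not stated. Each of the 3 replicates of a group is therefore a separate plant, and the p-values measure the spread between plants within a genotype that stands for tolerance by itself. The susceptible genotype Ezhi No. 2 (EG), with 3 waterlogged and 3 control libraries at 4 h, and the later hours of R2G were used only to set the values of R2G beside them. In total 20271 genes have a value as TPM, a unit that divides reads by gene length and scales each library to the same total, so that levels of different genes can be set beside each other while the depth of a library is lost. Genes that averaged under 1 TPM across the series were set aside, and limma was run on log2(TPM + 1) of the remaining 18178. To be called, a gene had to differ by 1 or more on the log2 scale with a p under 0.05 after Benjamini-Hochberg adjustment, and only called genes are said to rise or fall.

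Water in the pores of a soil slows the supply of oxygen to the root. Plant cells short of oxygen depend on glycolysis and fermentation for ATP, and they lower costly synthesis. In Arabidopsis, ethylene response factors of group VII, which are degraded while oxygen is present, switch on genes of fermentation and sugar use when it runs out. All 20271 identifiers were found in the RefSeq table of genome v1.0, but it gives a descriptive name for only 15 of them, and most genes below are known by their locus identifier alone. No function is given for these. Leaf and root marker genes could not be looked up by name, so the labelled tissue was not checked against them.

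Plants of the same treatment were alike. Replicates correlated with each other at 0.983 to 0.986 under waterlogging and at 0.974 to 0.986 in control (Pearson, log2 scale). At least 1 TPM was reached by 16705 to 16802 genes in a waterlogged library and by 18051 to 18354 in a control library. The 10 most abundant genes took 4.46%, 4.95% and 4.88% of all TPM under waterlogging, against 3.94%, 3.90% and 4.35% in control. Among the other conditions of the series, the mean profile of R2G at 4 h of waterlogging was most like that of R2G at 8 h of waterlogging (0.979), and the R2G control at 4 h was most like the R2G control at 48 h (0.978).

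After 4 h of waterlogging, 686 genes had risen and 2755 had fallen in R2G roots, which is 3.77% and 15.2% of the genes tested. The risen genes went from a median level of 16.0 TPM in control to 51.0 TPM, and the fallen genes from 13.2 to 3.16 TPM. A log2 fold change of 2 was passed by 135 rises (19.7%) and 588 falls (21.3%), and of 3 by 31 rises (4.52%) and 160 falls (5.81%). The largest rise was 4.77 and the largest fall -5.38, while the medians were 1.39 for rises and -1.46 for falls. In 677 of the 686 rises and 2735 of the 2755 falls, no waterlogged library overlapped a control library, a separation that the call itself favours. Over all tested genes the waterlogged libraries lay wholly above the controls in 13.4% and wholly below in 42.5%. Fewer cells of a type and less RNA per cell cannot be told apart in such bulk roots.

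**Figure D1:**
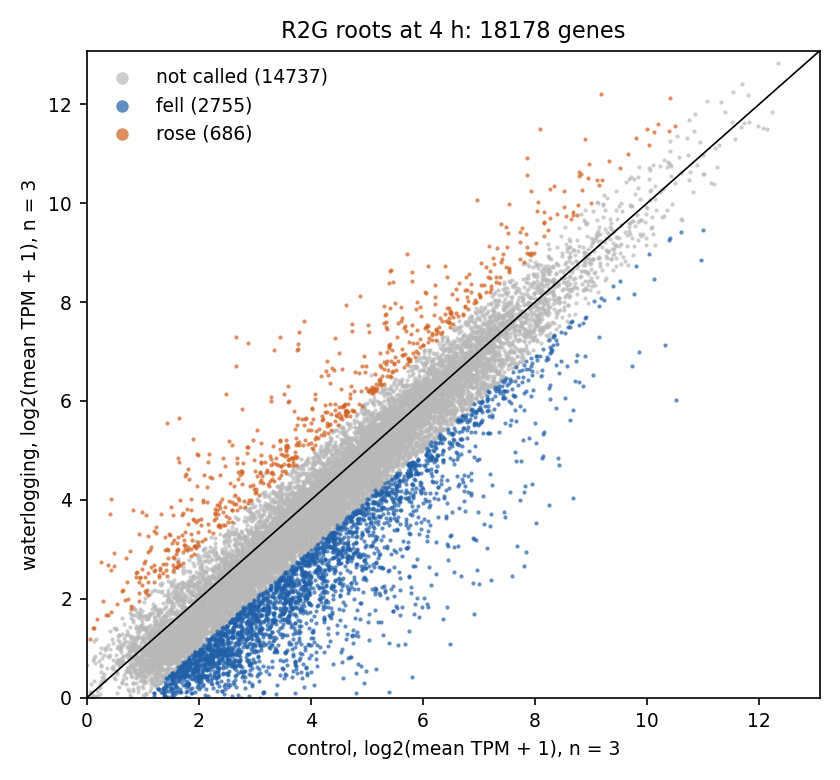
Mean level of each of the 18178 tested genes in the 3 control libraries (x axis) and the 3 waterlogged libraries (y axis) of R2G at 4 h, both as log2(mean TPM + 1), with the diagonal marking equal levels. The 2755 falls lie below the diagonal and outnumber the 686 rises above it.

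The risen genes together took up more of the RNA as measured. Their summed TPM was 4.43%, 5.45% and 4.37% of all TPM in the 3 controls and 13.7%, 14.9% and 14.4% in the 3 waterlogged libraries. For the fallen genes the sums were 12.5%, 11.5% and 11.9% in control and 3.55%, 3.78% and 3.80% under waterlogging. Genes were also set out by the mean level in control, without a test. On log2(TPM + 1) a gene under 1 TPM in control cannot fall by 1, so that 0 of these 355 genes could fall. Of 6199 genes at 1 to 10 TPM, 18.3% fell, and of 9462 at 10 to 100 TPM, 14.3%. Higher up, 12.6% of 2070 genes at 100 to 1000 TPM fell, and 9 of 92 above that. The shares that rose, from the lowest level up, were 10.7%, 3.77%, 3.21%, 4.98% and 7 of 92. The 355 genes passed the filter only through other libraries, and the control values that set the levels also enter the changes.

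TPM is a share of a fixed total. The values as deposited show a general shift, and its cause was not tested. The median log2 fold change of all tested genes was -0.26, and after each library was rescaled so that its typical gene matched the others (median-ratio scaling) it was -0.01. With that scaling 1081 genes rose and 1926 fell, so that rises made up 35.9% of the calls against 19.9% as deposited. The scaling lifts all genes by a similar amount, so that falls alone could lose their call, and 1926 of the 2755 did not. Leaving out each library in turn gave 648 to 766 rises and 2640 to 2910 falls, with 506 rises and 2120 falls called in each of the 6 fits. The control of 4 h is a single hour of a changing series: with the R2G control of 8 h in its place, 551 genes rose and 2400 fell, of which 356 and 1525 were the same genes.

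The control plants of the other 9 hours after 0 h, 27 libraries, give a range of unstressed R2G roots. The libraries of 0 h are left out of it and would widen it for some genes. For the peroxidase LOC105177799 a library of 0 h had 240.2 TPM, against at most 165 TPM in the 27. In 302 of the 686 rises (44.0%) all 3 waterlogged libraries lay above every one of these controls. In 1615 of the 2755 falls (58.6%) they lay below every one. Over all tested genes, called or not, the same was true of 667 (3.67%) and 2648 (14.6%). The called genes were picked on these same waterlogged libraries, which favours the larger shares among them.

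The 10 largest rises, among called genes whose groups do not overlap and whose waterlogged mean is at least 10 TPM, came from low levels. LOC105164801, on linkage group 6 from 17532533 to 17534400, had 4.36, 9.86 and 1.80 TPM in the controls and 201, 97.2 and 167 TPM under waterlogging. The means were 5.34 ± 4.12 and 155 ± 52.8 TPM (SD, n = 3 each), a ratio of 29.0, with a log2 fold change of 4.77 (SE 0.45, adjusted p = 1.0e-04 from limma). All 3 waterlogged plants were far above all 3 controls, though replicate 2 lay below the highest R2G control of another hour (122 TPM). The gene rose again at 5 of the 6 later hours tested (8, 12, 16, 20, 24 and 32 h).

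LOC105177354, on linkage group 15 from 1054570 to 1055624, had 1.25, 2.56 and 1.27 TPM in control and 41.5, 31.1 and 65 TPM under waterlogging. LOC105163609, on linkage group 6 from 3565336 to 3567424, had 1.81, 3.49 and 1.14 TPM against 50.0, 28.0 and 69.5 TPM. Both genes sat near the bottom of the scale in every control plant, and their highest level in an R2G control of another hour, 0 h included, was 17.1 and 18.1 TPM, below each waterlogged plant at 4 h. The log2 fold changes were 4.09 (SE 0.29, adjusted p = 3.1e-05) and 3.97 (SE 0.36, adjusted p = 8.0e-05) in limma. They are the only genes among these 10 that rose at all 6 later hours, where the values ranged from 2.16 to 3.16 for LOC105177354 and from 2.32 to 3.67 for LOC105163609.

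LOC105171780 on linkage group 10 rose from 5.89, 11.2 and 2.00 TPM to 147, 123 and 157 TPM, a log2 fold change of 4.49. LOC105157558 on linkage group 1 rose from 4.19, 9.02 and 2.74 TPM to 123, 65.1 and 122 TPM, a change of 4.11. LOC105165756 on linkage group 6 went from 10.3, 12.7 and 6.88 TPM to 148, 84.1 and 236 TPM, a change of 3.76. Waterlogged and control plants of 4 h did not overlap in any of the 3 genes. In each gene, however, 1 waterlogged plant lay below the highest R2G control of another hour after 0 h, at 127, 76.1 and 127 TPM. At 0 h LOC105165756 stood at 170, 174 and 144 TPM and LOC105157558 at 51.9, 13.8 and 93.9 TPM, so that their levels before the stress reached into those of waterlogged plants. LOC105173534 on linkage group 11 had the widest controls, at 11, 57.9 and 2.40 TPM, against 258, 161 and 319 TPM under waterlogging.

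Another 3 of the 10 depended on which control was used. LOC105167110, on linkage group 7 from 11172819 to 11173600, had 22.3, 2.62 and 2.40 TPM in control and 199, 98.5 and 88.8 TPM under waterlogging, a log2 fold change of 4.20 (SE 0.67, adjusted p = 0.0013 from limma). In the R2G control of 8 h the same gene reached 648, 187 and 283 TPM, and against that control the change at 4 h was -1.43. LOC105167105 on linkage group 7 (3.62 at 4 h) and LOC105158297 on linkage group 3 (3.96 at 4 h) behaved alike, with -1.58 and -2.07 against the control of 8 h. In unstressed plants all 3 genes were low at 16 and 20 h and high at 8 and 32 h. LOC105158297, for example, averaged 851 TPM at 8 h, 5.28 TPM at 16 h and 1994 TPM at 32 h in control.

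**Figure D2:**
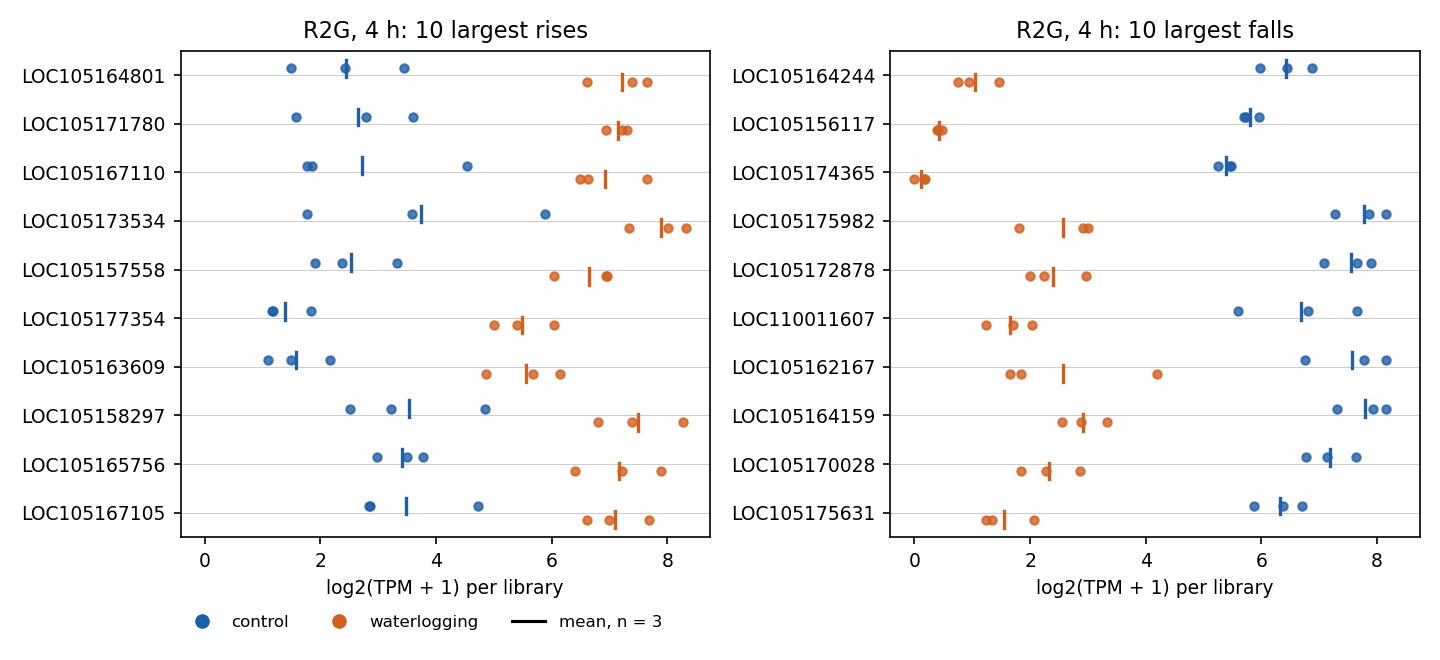
Levels as log2(TPM + 1) (x axis) of the 10 largest rises (left) and the 10 largest falls (right) in each of the 3 control and 3 waterlogged R2G libraries at 4 h, with short lines at the means. The control and waterlogged points of a gene do not overlap in any of the 20 genes, and the controls of LOC105173534 are spread the widest.

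The 10 largest falls were steadier. LOC105164244, on linkage group 6 from 9020073 to 9023766, had 61.9, 116 and 86.2 TPM in control and 0.68, 1.75 and 0.92 TPM under waterlogging. The means of 88.1 ± 27.2 and 1.12 ± 0.56 TPM (SD, n = 3 each) differ by a ratio of 78.7, with a log2 fold change of -5.38 (SE 0.26, adjusted p = 8.5e-06 from limma). No R2G control of another hour, 0 h included, was below 19.6 TPM for this gene.

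LOC105156117, on linkage group 1 from 1654456 to 1658369, fell from 52.2, 51.2 and 61.4 TPM to 0.31, 0.32 and 0.39 TPM (log2 fold change -5.38, SE 0.16, adjusted p = 1.9e-06 from limma). LOC105174365, on linkage group 1 from 17626548 to 17628299, fell from 42.7, 43.6 and 36.8 TPM to 0.12 and 0.13 TPM in a pair of waterlogged libraries and is listed at 0 in the other (-5.28, SE 0.16). Its locus overlaps LOC110011981, so reads of the overlapping stretch cannot be assigned with certainty. In both genes the replicates of a group were close together, and the control and waterlogged levels were apart by a wide margin.

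LOC105175982 on linkage group 13 fell from 154, 232 and 285 TPM to 2.48, 6.56 and 7.05 TPM. LOC105172878 on linkage group 10 fell from 237, 200.3 and 135 TPM to 3.72, 2.99 and 6.80 TPM. LOC105164159, which lies on linkage group 6 from 9031446 to 9034872 close to LOC105164244, fell from 158, 244 and 283 TPM to 6.38, 9.03 and 4.83 TPM. These were well expressed genes in every control plant and minor transcripts in every waterlogged plant. The remaining 4, LOC110011607, LOC105162167, LOC105170028 and LOC105175631, had log2 fold changes of -5.02, -5.0, -4.85 and -4.77. LOC105175631 overlaps LOC105175632. All 10 genes fell again at each of the 6 later hours.

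Other genes were named for their abundance. LOC105171727, on linkage group 10 from 2600824 to 2601556, was the most abundant gene that rose: it had 443, 1004 and 289 TPM in control and 4304, 5327 and 4492 TPM under waterlogging (log2 fold change 3.21, SE 0.39, adjusted p = 3.5e-04 from limma). LOC105155589 on linkage group 2 rose from 1543, 1399 and 1135 TPM to 5175, 4102 and 4078 TPM, a change of 1.71. The waterlogged plants of both genes were above all 3 controls. LOC105178680 on linkage group 16 (1175 ± 43.5 to 3089 ± 305 TPM), LOC105171804 on linkage group 10 (1022 ± 235 to 2909 ± 230.0 TPM) and LOC105175834 on linkage group 12 (1447 ± 64.1 to 3026 ± 379 TPM) rose by 1.39, 1.53 and 1.06 (SD, n = 3 each). The last of these was below the threshold of 1, at 0.97, without waterlogging replicate 2. With the control of 8 h it was 0.90 and that of LOC105178680 was 0.82. LOC105171804 overlaps LOC105171802, which also rose.

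The abundant genes that fell included LOC105170410, on linkage group 9 from 3106226 to 3107226, which had 1645, 945 and 1810 TPM in control and 46.8, 94.6 and 50.0 TPM under waterlogging (-4.52, SE 0.31, adjusted p = 3.0e-05 from limma). Its neighbour LOC105170407, from 3096972 to 3097941, fell from 2416, 1248 and 2475 TPM to 693, 823 and 602 TPM (-1.48). LOC105175619 on linkage group 12 fell from 2345, 2003 and 1644 TPM to 472, 291 and 621 TPM (-2.16). None of the 3 genes had a waterlogged value as high as any control value. LOC105167068 on linkage group 7 fell by 1.08 on the log2 scale, but its change was -0.92 without control replicate 1 and -0.79 after median-ratio scaling, both short of the threshold. With the control of 8 h neither it (-0.58) nor LOC105170407 (-0.34) was called.

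At the far end, 21 falls went from at least 10 TPM in all 3 controls to under 1 TPM in all 3 waterlogged libraries, and 0 rises did the reverse. Their median control level was 22.5 TPM and their median waterlogged level 0.46 TPM, and 19 of the 21 fell at all 6 later hours, as did 39.2% of all falls of 4 h. Besides LOC105156117 and LOC105174365 named above, the group held LOC105178593, which went from 21.4, 29.5 and 29.5 TPM to 0.06, 0.06 and 0.09 TPM. It also held the neighbours LOC105159675 (23.5, 29.7 and 27.2 TPM to 0.19, 0.36 and 0.68 TPM) and LOC105159676 (26.9, 28.5 and 30.6 TPM to 0.56, 0.65 and 0.49 TPM). The limits of this group, and the genes named from it, were chosen after their values were seen.

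Of the 15 genes that carry a descriptive name, 14 passed the filter on low values, and 5 rose, 3 fell and 6 were not called. These were taken for their names, not for how they moved, and beside the background of 3.77% and 15.2% the counts are too few to read. GAPDH (LOC105156676, linkage group 2), the enzyme of glycolysis that yields NADH, had 247, 331 and 149 TPM in control and 1595, 1047 and 1020 TPM under waterlogging. All waterlogged plants were above all controls of 4 h, and the change was 2.37 (SE 0.29, adjusted p = 3.6e-04 from limma), or 2.01 with the control of 8 h. The highest R2G control of another hour, at 1091 TPM, was above 2 of the 3 waterlogged plants. At 2 h of waterlogging GAPDH already stood at 926, 907 and 974 TPM, against 372, 366 and 397 TPM at 0 h. At 8 h it stood at 451, 695 and 449 TPM, a change of 0.81 against the control of that hour, and no later hour gave a call as deposited. After median-ratio scaling 8 and 20 h gave one, with changes of 1.08 and 1.22.

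Of 3 enzymes that handle oxidants, only a peroxidase was called. This peroxidase (LOC105177799, linkage group 15), of the enzymes that use hydrogen peroxide to oxidise other compounds, had 67.4, 65.1 and 50.2 TPM in control and 242, 245 and 221 TPM under waterlogging (1.95, SE 0.14, adjusted p = 3.1e-05 from limma). The groups of 4 h did not overlap. At 0 h the peroxidase stood at 86.3, 115 and 240.2 TPM, the last as high as the waterlogged plants, and with the control of 8 h (89.9, 131 and 114 TPM) the change was 1.09 and still called. Superoxide dismutase (SOD, LOC105166989), which turns superoxide into hydrogen peroxide, had 51.3, 40.1 and 45.2 TPM against 27.8, 26.7 and 24.9 TPM; the groups did not overlap, but at -0.76 the change was short of the threshold. Catalase (LOC105178686), which breaks hydrogen peroxide down, had 75.9, 75.5 and 86.8 TPM against 75.6, 70.4 and 61.9 TPM, and the groups overlapped (-0.20, adjusted p = 0.23 from limma).

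Among enzymes of lipid metabolism, FAD2 (LOC105163532), the desaturase that converts oleate to linoleate in the endoplasmic reticulum, fell from 17.8, 12.7 and 32.9 TPM to 1.40, 2.34 and 1.6 TPM (-2.91, SE 0.31, adjusted p = 1.8e-04 from limma), and it fell at all 6 later hours. FAD7 (LOC105167042), an omega-3 desaturase of plastids and the third most abundant of the falls, had 1607, 1392 and 1647 TPM in control and 537, 813 and 702 TPM under waterlogging. Its change of -1.19 (SE 0.19) was called, but it became -0.90 after median-ratio scaling and -0.32 with the control of 8 h. At 0 h FAD7 stood at 773, 864 and 443 TPM. DGAT1 (LOC105173637), which adds the last fatty acid of triacylglycerol, had 33.0, 37.5 and 35.1 TPM against 60.1, 44.3 and 48.6 TPM and was not called (0.51).

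Among enzymes of specialised metabolism, UGT88D6 (LOC105160417), a glucuronosyltransferase of flavonoids in sesame, rose from 17.4, 20.9 and 15.5 TPM to 40.0, 41.5 and 34.6 TPM (1.07). Its change was 0.98 without control replicate 3 and, as the control of 8 h had 14.0, 43.7 and 27.7 TPM, 0.56 with that control, and neither was called. CYP81Q1 (LOC105177765), the cytochrome P450 that makes the lignan sesamin, rose from 6.90, 42.5 and 6.08 TPM to 46.0, 61.4 and 54.0 TPM (2.02, SE 0.59, adjusted p = 0.023 from limma). Control replicate 2 of CYP81Q1 came close to the waterlogged plants, and of the 6 fits that leave out a library the gene was called only in that without this plant (2.86). The other 5 gave adjusted p from 0.0561 to 0.0698 in limma. At 0 h CYP81Q1 stood at 63.8, 24.4 and 86.5 TPM, and an R2G control of another hour reached 381 TPM, above every waterlogged plant. PPO (LOC105176878), a polyphenol oxidase, fell from 3.23, 4.48 and 2.67 TPM to 0.25, 0.65 and 1.23 TPM (-1.40). PPO was still called with the control of 8 h (-1.25). At 0 h, however, PPO stood at 1.63, 0.58 and 1.27 TPM, which overlaps the waterlogged plants. An R2G control of another hour was at 0.19 TPM, below every waterlogged plant. IPS (LOC105176482) rose from 2.55, 4.48 and 3.01 TPM to 8.69, 8.37 and 7.82 TPM (1.12). It was 0.99 without control replicate 1 and 0.45 with the control of 8 h, neither called, and an R2G control of another hour reached 9.61 TPM, above every waterlogged plant. The gene named beta-actin, often used as a reference transcript, had 299, 350 and 304 TPM against 400, 385 and 468 TPM (0.39). AP3, which sets the identity of petals and stamens, was at 1.54 to 4.47 TPM in the 6 root libraries and was not called.

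**Figure D3:**
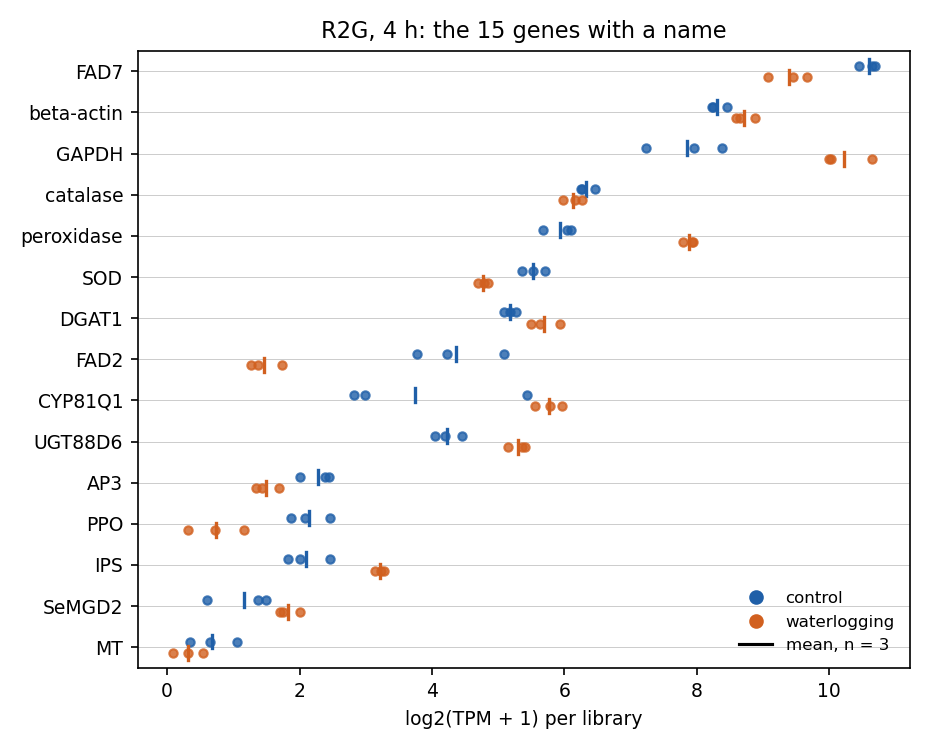
Levels as log2(TPM + 1) (x axis) of the 15 genes with a descriptive name in each of the 3 control and 3 waterlogged R2G libraries at 4 h, ordered by their mean level in control, with short lines at the means. GAPDH and peroxidase lie higher and FAD2 and FAD7 lower in all 3 waterlogged libraries, while the catalase groups overlap.

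Called genes were also placed along the linkage groups. Of 664 rises placed on a linkage group, 121 (18.2%) had an adjacent tested gene that also rose, and of 2666 falls, 913 (34.2%) had an adjacent gene that also fell. Of all 17517 tested genes so placed, 7.31% had an adjacent rise and 27.96% an adjacent fall, and no test was run on these shares. As a description, there were 9 runs of at least 3 adjacent rises and 79 runs of at least 3 adjacent falls. How many such runs the shares called would give by themselves was not computed, so the counts show no clustering. Of the 4 runs with at least 4 rises, 3 lay on linkage group 10, and 72 of its 1139 tested genes rose (6.32%, against 3.77% in all). Adjacent genes may be similar copies, between which reads can be split, and their likeness in sequence was not tested.

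The longest run held 8 rises in a row, from LOC105171788 to LOC105171727, on linkage group 10 from 2580433 to 2601556. Under waterlogging their means ran from 192 TPM for LOC105171790 to 4708 TPM for LOC105171727, against 39.5 and 579 TPM in control. LOC105171791, next to LOC105171727, rose from 167, 429 and 99.6 TPM to 1800, 2209 and 1773 TPM (3.31). Control replicate 2 was the highest of the 3 controls for each of the 8 genes. The same plant was the highest control for every gene in the run of 6 genes from 3146919 to 3166097 and in the run of 4 genes from 8244829 to 8273158 on the same linkage group, where the changes ran from 1.14 to 2.18 and from 1.70 to 3.35.

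A run of 3 genes on linkage group 10 from 722385 to 731374 combined high levels with close replicates. LOC105171585 rose from 243, 370 and 201 TPM to 2761, 2863 and 2989 TPM (3.45, SE 0.22), and LOC105171586 from 423, 491 and 513 TPM to 2433, 2395 and 2660 TPM (2.39, SE 0.16). LOC105171587, the least abundant, went from 39.9, 29.1 and 53.9 TPM to 140, 151 and 124 TPM (1.77). All 3 genes rose at each of the 6 later hours. On linkage group 7, the run of LOC105167109, LOC105167110 and LOC105167111 from 11170575 to 11175638 rose by 2.85, 4.20 and 2.15, and 1 of its genes is among those that changed sign with the control of 8 h.

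**Figure D4:**
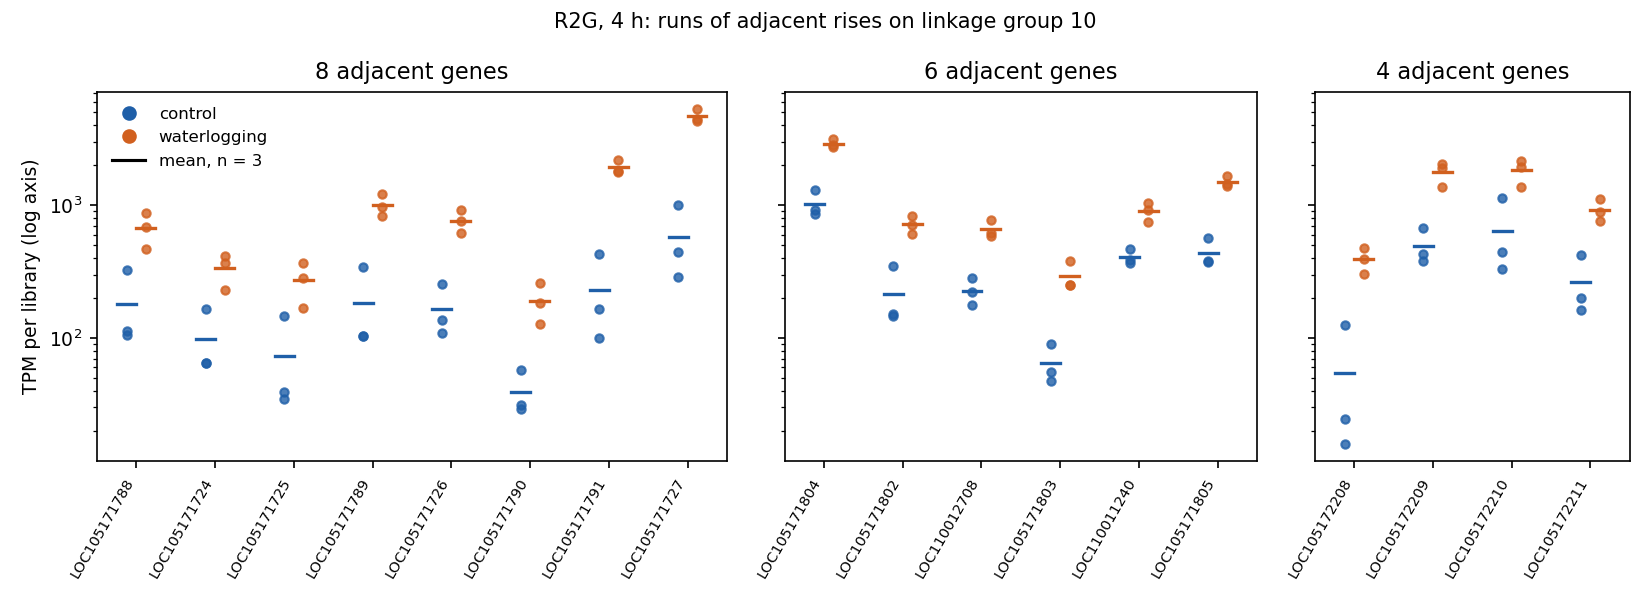
TPM per library on a log axis (y axis) for the genes of 3 runs of adjacent rises on linkage group 10, in their order along the linkage group (x axis), with 3 control and 3 waterlogged R2G libraries at 4 h and short lines at the means. Every waterlogged point lies above every control point of its gene in all 3 runs, and the means of the 8 genes of the longest run reach from 192 to 4708 TPM under waterlogging.

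The longest run of falls held 7 genes on linkage group 4 from 13429552 to 13505747, of which LOC105160934, at -1.10, was not called after median-ratio scaling, which breaks the run. It included LOC105160940, which fell from 246, 298 and 478 TPM to 22.8, 38.2 and 22.9 TPM (-3.54, SE 0.27), and LOC105160937, which fell from 226, 179 and 183 TPM to 70.8, 46.8 and 84.7 TPM (-1.56). A run of 5 on linkage group 3 from 7389640 to 7483085 had changes from -2.40 to -3.76. Within it LOC105157563 went from 225, 159 and 178 TPM to 16.4, 24.2 and 9.88 TPM, with every waterlogged plant below every control. The runs named were chosen by length after the calls were known.

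The genes called at 4 h were then followed in R2G libraries of later hours, with the controls of those hours. Of the 686 rises, 288 rose at 8 h (42.0%), 305 at 12 h, 251 at 16 h, 295 at 20 h, 189 at 24 h (27.6%) and 182 at 32 h (26.5%). Over all tested genes the shares that rose at these hours were 3.0%, 3.58%, 3.57%, 4.65%, 2.85% and 2.85%. Of the 2755 falls, 1522 fell at 8 h (55.2%), 2122 at 12 h, 2226 at 16 h, 2299 at 20 h (83.4%), 2204 at 24 h and 1710 at 32 h (62.1%), where 14.2%, 22.3%, 29.7%, 31.5%, 27.2% and 17.3% of all tested genes fell. Median-ratio scaling moved these totals too, at 16 h from 649 rises and 5404 falls to 1990 and 3205, and at 8 h from 546 and 2589 to 989 and 1770. Looked at from the later lists, the genes of 4 h made up 52.7% of the rises of 8 h and 35.1% of those of 32 h, and 58.8% and 54.3% of the falls.

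The control library of 24 h replicate 3 and the waterlogged library of 32 h replicate 1 stood apart from their replicates, with correlations of 0.936 to 0.952 and 0.939 to 0.941. Without them the rises called again were 234 at 24 h and 287 at 32 h. At 32 h single control libraries also moved the counts, to 88 rises and 1115 falls without replicate 1 and to 117 rises without replicate 3.

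In all, 49 rises (7.14%) and 1081 falls (39.2%) were called at each of the 6 later hours, and 175 rises and 161 falls at none. Over all tested genes, 0.341% rose and 7.54% fell at each of these hours, while 90.9% had no rise and 57.7% no fall at any of them. After median-ratio scaling the first pair of counts was 135 and 766 and the second 85 and 367. Without the libraries that stood apart the lasting rises were 71 and the lasting falls 1080. A later call in the other direction was given to 75 of the 686 rises and to 33 of the 2755 falls. Such calls were more common over all tested genes, of which 57.7% had no later fall and 90.9% no later rise.

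The 49 lasting rises went from a median of 25.5 TPM to 130 TPM. LOC105171566 had 8.91, 22.6 and 5.94 TPM in control and 132, 114 and 143 TPM under waterlogging (3.47). LOC105174859 had 26.5, 48.5 and 50.5 TPM against 385, 445 and 377 TPM (3.29). Both were clear of their controls in every plant. The 175 rises with no later call included GAPDH, as deposited. Another of them, LOC105174313, went from 13, 12.3 and 10.8 TPM to 59.5, 58.6 and 46.1 TPM (2.09), while its changes at the later hours lay between -0.54 and 0.63. Among the 161 falls with no later call, LOC105173903 went from 64.3, 52.0 and 59.3 TPM to 7.13, 4.32 and 6.59 TPM (-3.11), with later changes from -1.14 to 0.28. The genes named here were picked after their values were seen.

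The median level of the 686 rises in R2G under waterlogging was 35.2 TPM at 2 h, 51.0 TPM at 4 h, 33.7 TPM at 6 h and 50.9 TPM at 8 h. In control it was 20.6 TPM at 0 h, 16.0 TPM at 4 h and 28.1 TPM at 8 h, so that the control of 4 h was the lowest of the 11 control hours for these genes, which were chosen on it. The 2755 falls stood at 5.51 TPM at 2 h, 3.16 TPM at 4 h, 4.25 TPM at 6 h and 3.02 TPM at 8 h, against controls of 14.6 TPM at 0 h, 13.2 TPM at 4 h and 9.39 TPM at 8 h. At 2 and 6 h there is no control of the same hour, and these medians are given without a test. Both lists were also picked on the waterlogged libraries of 4 h, which favours high rises and low falls at that hour.

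**Figure D5:**
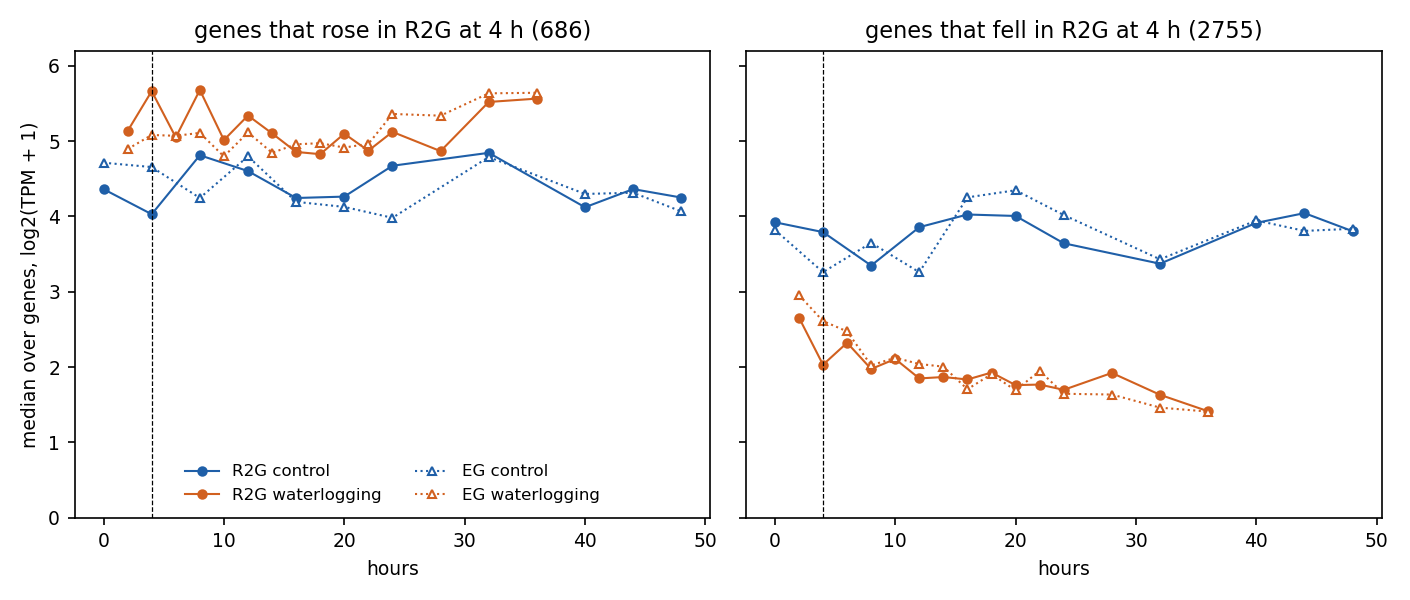
Median over the 686 rises (left) and the 2755 falls (right) of the log2(TPM + 1) level in control and waterlogging at each sampled hour (x axis) in R2G (filled circles) and EG (open triangles), with a dashed line at 4 h. In R2G the rises stand highest at 4 and 8 h of waterlogging, and the falls stay below every control at all hours of waterlogging. The genes were picked on the R2G libraries of 4 h, which favours the gap at that hour.

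At 4 h EG had 1145 rises and 2878 falls, 6.3% and 15.8% of the genes tested, or 1862 and 1837 after median-ratio scaling. Of the 686 rises of R2G, 173 also rose in EG (25.2% of the R2G list and 15.1% of the EG list), 76 fell and 437 were not called. Of the 2755 falls of R2G, 867 also fell in EG (31.5% and 30.1%), 126 rose and 1762 were not called. The effect of waterlogging at 4 h differed between the genotypes in 4269 genes by the interaction term of limma over the 12 libraries: it was higher in R2G in 1813 (9.97%) and lower in 2456 (13.5%). The interaction was called as higher in R2G for 368 of the R2G rises and as lower for 1189 of the R2G falls. The R2G change that picked these genes is itself part of the interaction, which favours these directions.

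The EG libraries of 4 h have to be described before these differences are read. The mean profile of EG at 4 h of waterlogging was most like EG at 2 h (0.972), R2G at 6 h (0.971) and EG at 6 h. That of R2G at 4 h was most like R2G at 8 h, followed by R2G at 2 h (0.972) and EG at 8 h (0.972). Across both genotypes 363 genes were higher at 6, 10, 14, 18 and 22 h than at 8, 12, 16, 20 and 24 h of waterlogging and 275 were lower, each by at least 1 on the log2 scale. The mean level of the former minus that of the latter was -1.54, -2.20 and -1.71 in the waterlogged R2G libraries of 4 h but 0.81, 0.97 and 0.55 in those of EG, and from -1.99 to -0.01 in the 60 controls. The measure does not separate the hours fully: R2G at 14 h had -0.09, -1.08 and -1.39, within reach of the -3.04 to -0.69 of R2G at 8 to 24 h. These lists were made after the values were seen. With EG at 8 h, waterlogged and control, in place of EG at 4 h, the interaction called 397 genes as higher and 179 as lower in R2G. With the EG waterlogged libraries of 8 h alone the counts were 1038 and 1013, and with the EG controls of 8 h alone 1526 and 1745. Genotype and whatever sets the EG libraries of 4 h apart cannot be told apart in these counts.

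With that limit, the largest differences were as follows. LOC105164244, the largest fall of R2G, had 7.15, 1.34 and 7.82 TPM in the EG controls and 36.1, 13.8 and 20.1 TPM in the waterlogged EG plants, so that it rose in EG by 2.04 and the difference was -7.41 (SE 0.67, adjusted p = 1.8e-05 from limma). LOC110011607 and LOC105173049 went the same way, with differences of -6.18 and -6.10. In all 3 genes the EG controls were below the R2G controls: for LOC105173049 they were 2.66, 1.09 and 7.21 TPM, against 26.8, 26.5 and 36.7 TPM in the R2G controls. With EG at 8 h the differences were -2.92, -1.51 and -2.45 and were not called.

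In the other direction, LOC105157575 on linkage group 1 had 25.9, 110 and 7.68 TPM in the R2G controls and 158, 72.5 and 357 TPM in the waterlogged R2G plants, and the groups overlapped. In EG it went from 1954, 948 and 1436 TPM to 28.7, 50.9 and 84.3 TPM. The difference of the effects was 7.21 (SE 1.11, adjusted p = 4.5e-04 from limma). LOC105166205 (5.98) and LOC105172653 (5.70) had the same form, with high EG controls and no call in R2G, and without R2G control replicate 3 the adjusted p of the latter was 0.0503.

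Among genes with a name, the interaction was called for 4. The peroxidase rose in R2G, and in EG it had 126, 145 and 147 TPM in control and 115, 90.9 and 84.3 TPM under waterlogging (difference 2.48, adjusted p = 1.1e-05 from limma). CYP81Q1 differed by 4.10, as the EG plants fell from 34.1, 31.5 and 28.5 TPM to 9.77, 5.32 and 5.54 TPM. FAD2 differed by -4.07, and in EG it rose from 5.57, 2.02 and 3.24 TPM to 13.7, 5.97 and 8.13 TPM (1.16). Its EG controls were below the R2G controls. UGT88D6 differed by 1.06 and was not called in EG (0.02). GAPDH rose in both genotypes, in EG from 317, 291 and 407 TPM to 2387, 1714 and 2128 TPM, and the difference of -0.25 was not called (adjusted p = 0.64).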

How the data were processed

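Poly(A) RNA of sesame roots was sequenced in pairs of reads. As the study's methods and the submitters' processing notes give it, the authors checked reads with FastQC, trimmed them with Trimmomatic 0.32, aligned them with STAR to genome v1.0, counted uniquely mapped reads per gene with featureCounts and deposited TPM; other versions and the handling of strand are not given in the sources used here. The deposited TPM values keep no depth of a library, so no counting interval is given for a gene. All 195 columns matched a sample and 0 were unused.

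Groups followed the labels. Genes averaging 1 TPM or more across all columns entered limma 3.58.1 (eBayes with trend, R 4.3.3) as log2(TPM + 1), a scale that understates fold changes of low genes. A call needed both a log2 change of 1 or more in size and a p under 0.05 after Benjamini-Hochberg adjustment. The difference between genotypes was the interaction term over the 12 libraries of 4 h. The scripts were tested on simulated data. Python 3.11.15 with pandas 2.3.3 and numpy 2.4.6 made the summaries.

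Named genes of R2G were the 10 largest rises and falls and the 5 most abundant rises and falls. They came from called genes whose groups do not overlap and whose higher group averages at least 10 TPM. For the interaction, the 3 largest in each direction were named among genes called for it. These needed a mean of at least 10 TPM in 1 of the 4 groups, and their groups could overlap. The members and lists were chosen with earlier results of these data known. Genes with a descriptive name stand in for gene lists by product, for leaf and endodermis markers and for promoter motifs, which could not be matched without product names or sequences and are not analysed here. Names and coordinates come from the RefSeq table of S_indicum_v1.0.

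Alternatives were a pseudocount of 0.1, no filter, a filter over the 6 libraries, median-ratio scaling, the replicate number as a block, a spread shared by all samples, each library left out, and the R2G control of 8 h. EG libraries of 8 h, the lists of genes that follow the hour, and the alternatives at later hours were added after seeing the data.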

Additional observations from a re-analysis of the deposited data

Results flagged for a closer look

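By the interaction term of limma, the effect of waterlogging at 4 h differed between R2G and EG in 1813 genes as higher and in 2456 genes as lower in R2G, each by at least 1 on the log2 scale. These counts were 397 and 179 with EG at 8 h in place of EG at 4 h, and the part of the EG libraries of 4 h in them was not tested further.

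The genes named for the largest differences were higher in R2G by 7.21 (LOC105157575), 5.98 (LOC105166205) and 5.70 (LOC105172653) on the log2 scale. In each of them the EG controls were high and the R2G controls spread widely, with control replicate 2 the highest. The effect was lower in R2G by -7.41 for LOC105164244, -6.18 for LOC110011607 and -6.10 for LOC105173049, in which the EG controls were below the R2G controls.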

How the results depend on the processing

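Of 174 alternatives to the counts, 161 stayed within 1.5 times the reported value. Median-ratio scaling, which takes out the general shift by construction, gave 1081 rises in R2G and 1862 rises and 1837 falls in EG. With it, 414 and 370 of the R2G rises were called again at 16 and 24 h. The interaction had 397 higher and 179 lower genes with EG at 8 h, and 1038 and 1013 with the EG waterlogged libraries of 8 h. Leaving out each library gave 648 to 766 rises and 2640 to 2910 falls in R2G, 1049 to 1233 and 2632 to 3061 in EG, and 1695 to 1973 and 2169 to 2621 for the interaction. At 32 h it gave 88 to 287 rises and 1115 to 1884 falls called again. Single genes kept direction and call in 494 of 510 alternatives. With the R2G control of 8 h, LOC105167110 (-1.43), LOC105158297 (-2.07) and LOC105167105 (-1.58) reversed; the control of that hour was higher, and its cause was not tested.

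Deviations of waterlogged and control plants of the same replicate number correlated at 0.29, -0.04 and -0.09 in R2G. In EG the values were 0.12, 0.17 and -0.11, and not every sample correlated best with its own number. With the replicate number as a block, 687 genes rose and 2750 fell in R2G, 1164 and 2896 in EG, and the interaction had 1823 and 2458. The TPM values hold no read counts, so counting error at low levels was not computed.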
